A study of Mus musculus with 24 samples.

Results

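Microglia are the resident macrophages of the retina, and 9 genes by which they are recognised were followed after blast-mediated traumatic brain injury (bTBI). The genes were taken by symbol as a list of microglial identity genes. The rule holds no threshold on an expression value, but the list was drawn up with earlier results of these data known. All 9 were in the 1 week table of 14922 genes. At 5 weeks the table held 15920 genes and among them 7 members, while Aif1 and Fcrls were not listed there. For the comparison of their sizes of change, Tmem119, P2ry12, Cx3cr1, Siglech and Fcrls were grouped as 5 receptors and surface genes of resting microglia, and Csf1r, Aif1, Trem2 and Tyrobp as the 4 other genes.

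RNA-Seq was performed on 24 retinas of male C57BL/6J mice, 6 from each of 4 groups, bTBI and sham at 1 week (8 days in the sample labels) and bTBI and sham at 5 weeks. The bTBI mice were anesthetized, placed in a closed chamber and struck by an overpressure wave on the left side of the head. The sham mice were handled in a similar manner but had no blast. No genotype or transgene distinguished the groups. The extraction kit was RNeasy Plus Mini for the 1 week retinas but RNeasy Mini for those of 5 weeks, so that kit and timepoint cannot be told apart between the sham groups. The labels name the retinal ganglion cell (RGC) as cell type, while whole retinas were dissected. The 5 genes of a rod list, among them Gnat1, the rod transducin gene, summed to 66175 to 87728 CPM in every retina, so the values are those of a mixed tissue. In such a tissue a change in the number of microglia and a change in RNA per microglial cell cannot be told apart.

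Resting microglia survey the retina with motile processes and carry a set of surface receptors that other retinal cells lack. Signals through the receptor Csf1r keep them alive, and the receptor Trem2 signals through the adaptor protein encoded by Tyrobp. After injury microglia can proliferate, change shape and alter the levels of these genes, and in several disease models the resting receptors fall while Trem2 and Tyrobp rise.

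The deposited values are read counts per gene scaled to an effective library size (CPM). The depth read from the step between values was 14301989 to 25158638 reads per retina, and the lowest value of a member, Aif1 in a sham retina at 1 week, stood for 11 reads. Tissues next to the retina were present in some bTBI retinas of 1 week. Mbp, the myelin basic protein gene, reached 2531 CPM in bTBI replicate 3 and lay at 35.7 to 139 CPM in the other bTBI retinas, against 38.3 to 42.0 CPM in sham retinas. Cryaa, the alpha A-crystallin gene of the lens, was at 2003 and 4541 CPM in bTBI replicates 5 and 6, at 18.2 to 144 CPM in the other bTBI retinas, and at 2.10 to 422 CPM in sham retinas. The 6 genes of an RGC list, among them Pou4f1 and Nefl, were all called as lower in bTBI retinas at both timepoints, with a median log2 fold change of -0.51 at 1 week and -0.70 at 5 weeks, and the part of this loss in the values that follow was not tested.

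The 9 genes lie on 6 chromosomes of GRCm38 and are protein coding in the GENCODE M21 annotation. Tmem119 lies on chromosome 5 (113793729-113800516, minus strand), P2ry12 (59216272-59262871, minus) and Fcrls (87250758-87263738, minus) on chromosome 3, and Cx3cr1 on chromosome 9 (119901616-120069879, minus). Siglech (55768178-55778925, plus) and Tyrobp (30413760-30417585, plus) lie on chromosome 7, Aif1 (35170991-35176068, minus) and Trem2 (48346401-48354147, plus) on chromosome 17, and Csf1r on chromosome 18. The exons of Csf1r overlap those of Hmgxb3 on the opposite strand over 873 bases, 15.1% of the exon length of Csf1r, and whether the counting used the strand is not given in the sources used here. Hmgxb3 itself had 30.9, 32.6 and 36.7 CPM (lowest, median and highest) in bTBI retinas, against 29.8, 33.2 and 35.2 CPM in sham retinas at 1 week (log2 fold change 0.00093, adjusted p = 0.998). Exons of P2ry12 and Cx3cr1 overlap genes on the opposite strand by 9 and 78 bases.

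Divided by exon length, the members differed widely in level in sham retinas at 1 week. Csf1r was highest with a mean of 12.97 CPM per kb, followed by Tyrobp at 4.34, Cx3cr1 at 1.92, Tmem119 at 1.82 and P2ry12 at 1.30 CPM per kb. Fcrls (0.851), Siglech (0.729), Aif1 (0.594) and Trem2 (0.473 CPM per kb) were lower. In bTBI retinas of 1 week the means were 17.9 CPM per kb for Csf1r and 15.8 CPM per kb for Tyrobp, and 1.54 to 4.76 CPM per kb for the other 7 members. The bTBI mean of Tyrobp rested on bTBI replicate 3, and without that retina the means were 16.9 CPM per kb for Csf1r and 10.5 CPM per kb for Tyrobp. Csf1r thus stood above the other members in both groups.

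Sequence before the RefSeq start of a gene is shown for the members in which one of 4 motifs was found, other than the TATA box alone, since the transcription factors that bind such motifs were among the genes measured. A RefSeq window of 250 bases before to 50 bases after the start (GRCm38.p6) was matched for 6 of the 9 members, P2ry12, Fcrls, Siglech, Cx3cr1, Aif1 and Trem2. The PU.1 motif GAGGAAG, searched on both strands like the others, was found in 2 of the 6 windows, Trem2 and Fcrls, against 13.4% of 32544 windows of all genes. The interferon-stimulated element was found in Aif1 alone (3.45% of all windows), the STAT motif TTCNNNGAA in Siglech alone (8.33%), and TATAAA in Fcrls alone (13.6%). Capitals mark the motif in the sequences, which are 5′ to 3′ on the strand of the gene. They cover positions -250 to -31 from the RefSeq start for Trem2 (chr17:48346151-48346370, plus strand, PU.1 motif on the opposite strand), Aif1 (chr17:35176083-35176302, minus strand) and Siglech (chr7:55767934-55768153, plus strand), and the site with 10 bases on each side for Fcrls (chr3:87263652-87263678, minus strand).
Trem2: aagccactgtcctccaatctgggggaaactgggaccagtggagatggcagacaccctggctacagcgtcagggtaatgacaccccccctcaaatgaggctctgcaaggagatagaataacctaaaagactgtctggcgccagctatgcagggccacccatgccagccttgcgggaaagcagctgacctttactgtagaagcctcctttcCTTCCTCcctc
Fcrls: agtctgtaaaGAGGAAGgacgtttgct
Aif1: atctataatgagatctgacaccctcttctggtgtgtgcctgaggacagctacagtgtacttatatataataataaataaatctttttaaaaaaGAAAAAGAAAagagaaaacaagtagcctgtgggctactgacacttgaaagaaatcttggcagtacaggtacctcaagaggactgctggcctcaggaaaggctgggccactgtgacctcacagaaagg
Siglech: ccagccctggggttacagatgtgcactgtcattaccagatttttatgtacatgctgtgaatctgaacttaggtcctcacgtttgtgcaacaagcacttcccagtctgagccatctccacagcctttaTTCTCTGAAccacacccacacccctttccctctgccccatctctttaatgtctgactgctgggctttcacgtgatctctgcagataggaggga
The start in RefSeq is not always that in GENCODE. The RefSeq start of Fcrls lies 214 bases inside the GENCODE gene, so that its site, though before the RefSeq start, is within the annotated gene, with 1 base in a GENCODE exon. The window of Cx3cr1 lies wholly inside its GENCODE gene, with the RefSeq start 1583 bases downstream of the annotated one, while that of P2ry12 lies wholly outside, with the start 114 bases upstream. A match of these letters is a description of the sequence and not evidence of binding. In P2ry12 and Cx3cr1 none of the 4 motifs was found in these windows.

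At 1 week after bTBI the level of every member was higher in the mean of the bTBI retinas than in that of the sham retinas, by 1.38-fold for Csf1r to 4.08-fold for Fcrls. On the log2(CPM + 1) scale 5 of the 9 members, Tmem119, Cx3cr1, Siglech, Aif1 and Trem2, rose with an adjusted p under 0.005 (limma, Benjamini-Hochberg over all genes). Of all 14922 genes 1.27% rose by this measure and 2.25% changed in either direction. The median log2 fold change was 1.07 over the 9 members and -0.00024 over all genes. All 9 members had an unadjusted p under 0.05, as did 17.3% of all genes. In 4 members, Tmem119, Cx3cr1, Aif1 and Trem2, every bTBI retina was above every sham retina, which held for 1.59% of all genes. Aif1 was not listed at 5 weeks and may have passed the authors' removal of low genes at 1 week only through bTBI retinas. Tmem119, Cx3cr1 and Aif1 are among the genes that the study itself named from these retinas, so their calls are not independent of it.

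**Figure D1:**
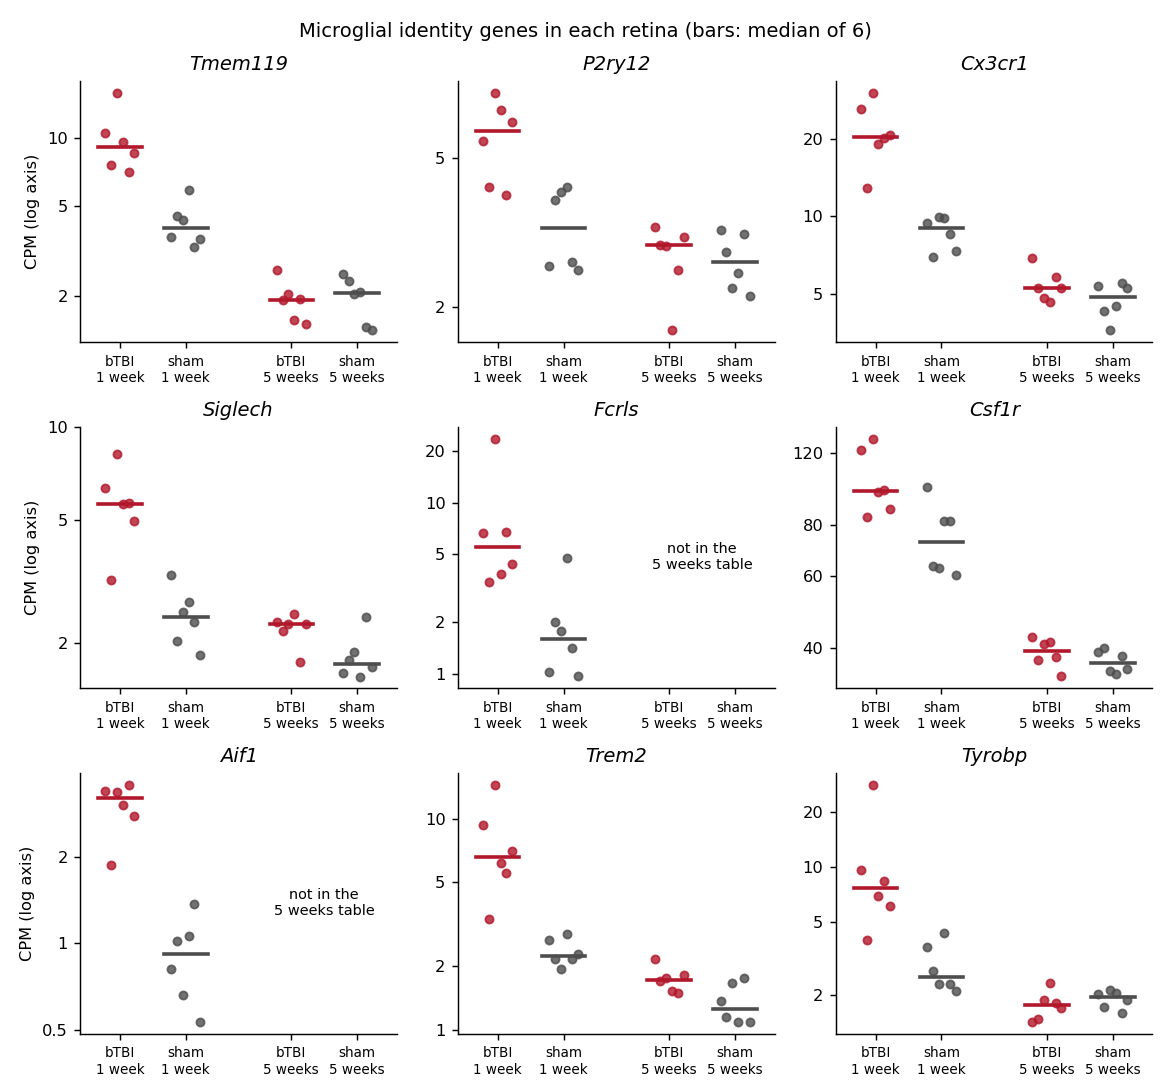
Level of each of the 9 members (y axes, CPM on a log axis) in each retina by group (x axes, bTBI left of sham within each timepoint). Points are retinas, ordered by replicate number, and bars are medians of 6. At 1 week the bTBI and sham points of Tmem119, Cx3cr1, Aif1 and Trem2 do not overlap, and at 5 weeks those of all 7 listed members overlap.

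Among the resting genes, Tmem119 encodes a transmembrane protein found in resident microglia and used to tell them from other macrophages. It was at 7.08, 9.15 and 15.9 CPM (lowest, median and highest of 6) in bTBI retinas, against 3.28, 4.01 and 5.91 CPM in sham retinas. Every bTBI retina was above every sham retina, and the means differed 2.35-fold (log2 fold change 1.04, standard error 0.16, adjusted p = 0.00101). Cx3cr1 encodes the receptor for fractalkine, a chemokine that neurons present to microglia. Its levels were 12.9, 20.3 and 30.04 CPM in bTBI retinas, against 6.93, 8.98 and 9.90 CPM in sham retinas. Here too the groups did not overlap, and the mean was 2.48-fold higher in bTBI retinas (log2 fold change 1.18, standard error 0.16, adjusted p = 0.000347).

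Siglech encodes a receptor of the sialic acid-binding lectin family that signals through the Tyrobp adaptor. Its lowest, median and highest levels were 3.20, 5.65 and 8.18 CPM in bTBI retinas, against 1.84, 2.44 and 3.33 CPM in sham retinas. Its level exceeded the whole sham range in 5 of 6 bTBI retinas, with bTBI replicate 2 inside that range, and the log2 fold change came to 0.92 (standard error 0.16, adjusted p = 0.00192). P2ry12 encodes the receptor for ADP with which microglial processes find sites of damage. It was at 3.99, 5.91 and 7.48 CPM in bTBI retinas, against 2.52, 3.26 and 4.19 CPM in sham retinas. The groups overlapped, 4 of 6 bTBI retinas lying above the sham range, and its log2 fold change, 0.63 with a standard error of 0.15, did not pass the threshold (adjusted p = 0.0193).

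Fcrls, an Fc receptor-like gene of mouse microglia, had the highest ratio of means, which rested on a single retina. It was at 3.44, 5.51 and 23.6 CPM in bTBI retinas, against 0.969, 1.60 and 4.73 CPM in sham retinas. The highest value was that of bTBI replicate 3, the retina with 2531 CPM of Mbp, and without it the ratio of means was 2.52 in place of 4.08. In sham retinas replicate 4 stood above the others, and 3 of 6 bTBI retinas lay above the sham range. The log2 fold change of 1.42 (standard error 0.36) had an adjusted p of 0.0258 and did not pass the threshold.

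Of the other genes, Aif1 encodes IBA1, an actin-binding protein of microglia and macrophages whose antibody is widely used to stain them. It was the lowest member in CPM, at 1.89, 3.20 and 3.58 CPM in bTBI retinas, against 0.533, 0.918 and 1.37 CPM in sham retinas. The groups did not overlap, and of all members Aif1 had the smallest adjusted p (log2 fold change 1.07, standard error 0.13, adjusted p = 0.000284). With such low sham values its listing may rest on the bTBI retinas, and its call is then not independent of that listing. Because a pseudocount of 1 understates the change of so low a gene, the ratio of means, 3.31, is larger than this log2 value implies. Unlike most members, Aif1 was highest in bTBI replicate 5 and not in bTBI replicate 3, and its ratio was 3.23 without bTBI replicate 3.

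Trem2 encodes a receptor for lipids, lipoproteins and cell debris that governs the response of microglia to damage. It had 3.35, 6.57 and 14.5 CPM in bTBI retinas, against 1.95, 2.22 and 2.84 CPM in sham retinas. Again no bTBI retina was inside the sham range (log2 fold change 1.26, standard error 0.22, adjusted p = 0.00222), and the ratio of means was 3.27, or 2.68 without bTBI replicate 3. Tyrobp, the gene of its adaptor DAP12, was at 3.96, 7.62 and 28.2 CPM in bTBI retinas, against 2.08, 2.49 and 4.37 CPM in sham retinas. In 5 of 6 bTBI retinas it exceeded the sham range. The spread among bTBI retinas was wide, since bTBI replicate 3 stood far above the rest, and its log2 fold change, 1.34 with a standard error of 0.31, did not pass the threshold (adjusted p = 0.0159). Without that retina the change was smaller, with a log2 fold change of 1.02 and a ratio of 2.41 in place of 3.63, while the adjusted p was 0.00496.

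Csf1r, the receptor for the survival factors CSF1 and IL34, had the smallest change of the 9. It was at 84.0, 97.0 and 130.4 CPM in bTBI retinas, against 60.3, 72.7 and 99.1 CPM in sham retinas. Only 2 of 6 bTBI retinas lay above the sham range, and its log2 fold change, 0.46 with a standard error of 0.13, did not pass the threshold (adjusted p = 0.0459). Csf1r is also the member with the highest level per kb and the one that shares 15.1% of its exon length with Hmgxb3, and the part of the overlap in its smaller change was not tested.

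**Figure D2:**
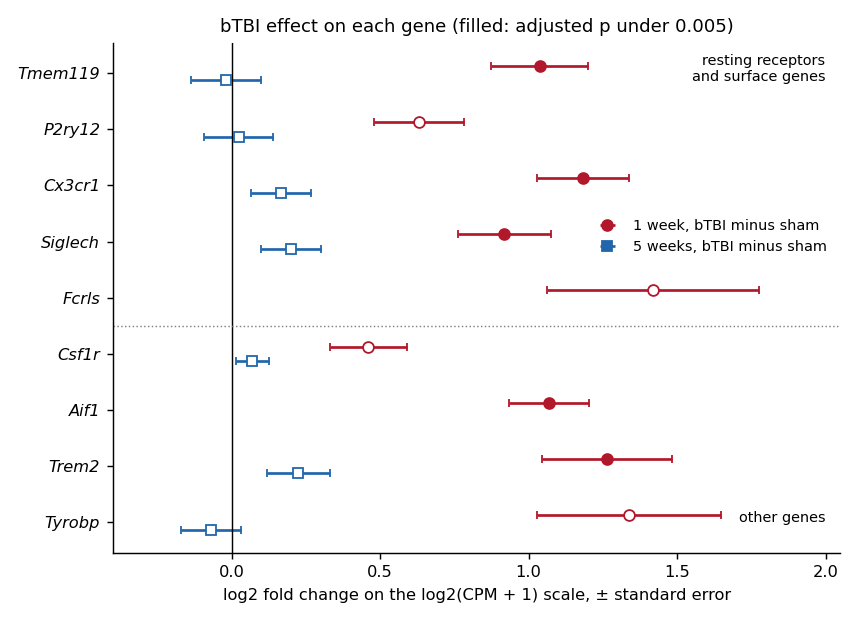
Log2 fold change of bTBI minus sham on the log2(CPM + 1) scale (x axis, with standard errors) for each member (y axis) at 1 week (red circles) and 5 weeks (blue squares). Filled symbols have an adjusted p under 0.005, which 5 members reached at 1 week and 0 at 5 weeks, and the dotted line parts the 5 resting genes from the 4 other genes.

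The sizes of change of the resting genes and of the others overlapped at 1 week, and how far they differed depended on the scale. On the log2(CPM + 1) scale the mean log2 fold change of the 5 resting genes minus that of the 4 other genes was 0.0049, and each group spanned small and large changes, 0.63 (P2ry12) to 1.42 (Fcrls) in the resting genes and 0.46 (Csf1r) to 1.34 (Tyrobp) in the others. The medians were 1.04 for the resting genes and 1.17 for the others. As ratios of mean CPM, without a pseudocount, the medians were 2.35 for the resting genes and 3.29 for the others. By this measure 4 of 5 resting genes lay between 1.72 and 2.48 and Fcrls at 4.08, while Trem2, Aif1 and Tyrobp lay between 3.27 and 3.63 and Csf1r at 1.38. Without bTBI replicate 3 the medians of the ratios were 2.09 for the resting genes and 2.54 for the others. Within single retinas, the mean log2 level of the resting genes minus that of the other genes was -0.61, -0.49 and -0.39 (lowest, median and highest) in bTBI retinas, against -0.78, -0.51 and -0.20 in sham retinas. The bTBI values lay inside the sham range. The difference also turned on where Csf1r was placed, since with Csf1r among the resting genes their difference was -0.28, smaller for the resting genes. No p is given because the genes were grouped with results of these data known.

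**Figure D3:**
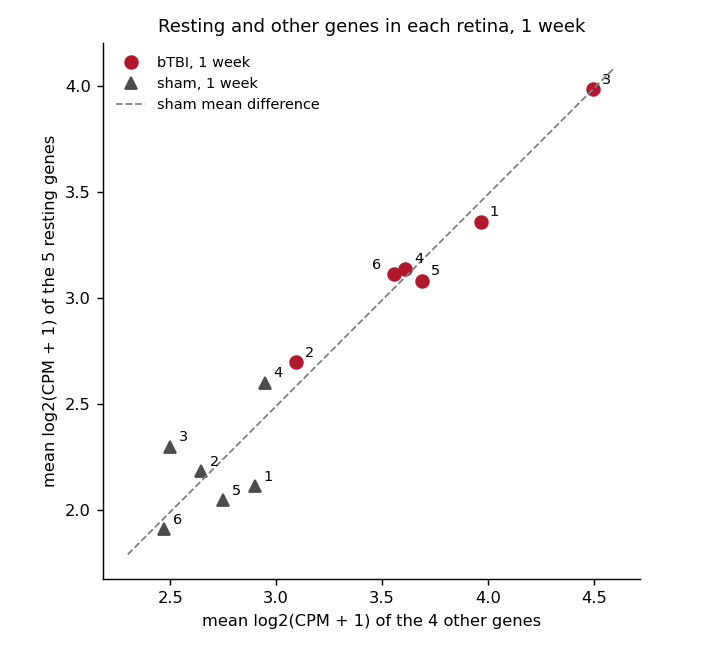
Mean log2(CPM + 1) of the 5 resting genes (y axis) against that of the 4 other genes (x axis) in each retina of 1 week, bTBI as red circles and sham as grey triangles with replicate numbers. The dashed line has the mean difference of the sham retinas, and the bTBI retinas lie along it at higher levels of both groups of genes, with bTBI replicate 3 highest and bTBI replicate 2 lowest among them.

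The members varied together from retina to retina within the groups. bTBI replicate 3 had the highest level of 8 of the 9 members among bTBI retinas, and bTBI replicate 2 the lowest level of 7. Among sham retinas replicate 4 was highest in 5 members and replicate 6 lowest in 6. The mean log2 level of the 9 members was 2.87, 3.35 and 4.21 in bTBI retinas, against 2.16, 2.39 and 2.75 in sham retinas. After the group means were subtracted, the 36 pairs of members had Pearson correlations of 0.11 to 0.92 (median 0.65) over the 12 retinas of 1 week, and of -0.12 to 0.89 (median 0.54) over 11 retinas without bTBI replicate 3. These points share libraries and the tissue mixture of each retina. The myelin-rich retina, bTBI replicate 3, was thus also the one highest in most members, and the part of its other tissue in these levels was not tested.

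By the same measure the gene most like the mean of the 9 members was C1qa, a chain of the complement protein C1q, which microglia make (r = 0.98, n = 12, and 0.97 without bTBI replicate 3). Fcer1g, the Fc receptor gamma chain, a signalling adaptor like Tyrobp (r = 0.97), Ctss, the lysosomal protease cathepsin S (r = 0.97), Litaf (r = 0.97) and Wnt9a (r = 0.96) followed. C1qa was among the 5 most similar genes of 4 members, Cx3cr1, Siglech, Trem2 and Tyrobp. It was at 14.8, 31.9 and 82.0 CPM in bTBI retinas, against 6.64, 9.56 and 13.8 CPM in sham retinas (log2 fold change 1.70, adjusted p = 0.00143), and the groups did not overlap. For Tmem119 and P2ry12 the most similar gene was Otulinl (r = 0.93 and 0.91), whose log2 fold change was 0.19 (adjusted p = 0.403), and for Aif1 it was Cttn (r = 0.89). Of the 39 genes named by this measure, 10 rose with an adjusted p under 0.005.

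Further genes of resting microglia were examined at 1 week. Of 14 further homeostatic genes 12 were listed, and 4 of them rose, with a median log2 fold change of 0.68 over the 12. Selplg, the P-selectin ligand, had a median of 13.4 CPM in bTBI retinas and 6.29 CPM in sham retinas (log2 fold change 1.07, adjusted p = 0.000271). Olfml3, a secreted protein enriched in microglia (0.81, adjusted p = 0.00121), and Sall1, a transcription factor of microglial identity (0.87, adjusted p = 0.00418), were also among those that rose.

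The transcription factors that set up the microglial lineage were measured at low levels. Of 6, Cebpa (log2 fold change 0.94, adjusted p = 0.000676), Irf8 (1.00, adjusted p = 0.000954) and Spi1, which encodes PU.1 (1.03, adjusted p = 0.00155), rose. Spi1 was at a median of 1.89 CPM in bTBI retinas and 0.586 CPM in sham retinas. Every bTBI retina was above every sham retina in all 3 genes, which held for 1.59% of all genes. Spi1, at 0.340 to 0.783 CPM in sham retinas, and Cebpa, at 1.08 to 1.90 CPM, were not listed at 5 weeks. Their listing at 1 week may rest on bTBI retinas, and their calls are then not independent of that listing. Ikzf1 (0.80, adjusted p = 0.0159) and Runx1 (0.24, adjusted p = 0.451) did not pass the threshold. The PU.1 motif was found in the windows of Trem2, which rose, and Fcrls, which did not pass. It was not found in those of Cx3cr1, Aif1 and Siglech, which rose, or of P2ry12, which did not pass. The part of Spi1 in these changes was not tested.

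Downstream of Trem2 and Tyrobp, 4 of 7 signalling genes were listed at 1 week. Vav1, a guanine nucleotide exchange factor of blood cells, rose (log2 fold change 1.07, adjusted p = 0.00232). It was at 0.383 to 1.00 CPM in sham retinas and was not listed at 5 weeks, so its listing too may rest on bTBI retinas. Inpp5d, which encodes the phosphatase SHIP1 (0.78, adjusted p = 0.00783), Plcg2, a phospholipase (0.58, adjusted p = 0.0400), and the kinase Syk (0.30, adjusted p = 0.532) did not pass the threshold, and Hcst, Btk and Card9 were not listed.

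None of the 6 ligand genes passed the threshold at 1 week, and 5 had an unadjusted p under 0.05. Csf1, one of the 2 ligands of Csf1r, was at a median of 15.4 CPM in bTBI retinas and 7.92 CPM in sham retinas (log2 fold change 0.82, adjusted p = 0.0156). Il34, the other, was at medians of 8.53 CPM in bTBI and 8.665 CPM in sham retinas (-0.01, adjusted p = 0.968), and Cx3cl1, the ligand of Cx3cr1, at 159 CPM in bTBI and 174 CPM in sham retinas (-0.12, adjusted p = 0.198). Clu (0.41, adjusted p = 0.0133) and Apoe (0.27, adjusted p = 0.208), lipid carriers that bind Trem2, and Tgfb1 (0.45, adjusted p = 0.169), which maintains resting microglia, did not pass either.

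**Figure D4:**
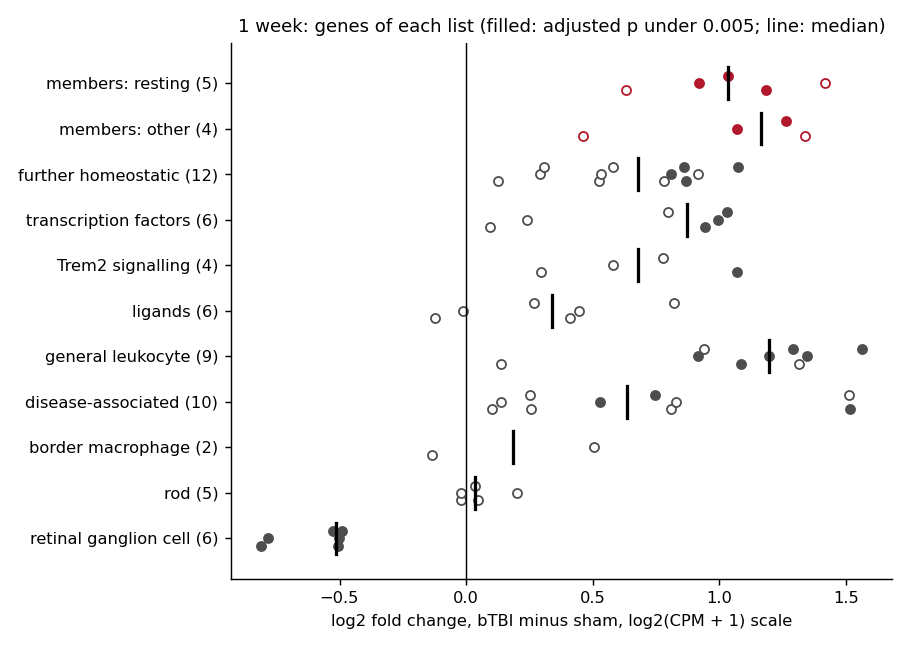
Log2 fold change of bTBI minus sham at 1 week (x axis) for the genes of each list (rows, number of listed genes in brackets), with the members in red. Filled points have an adjusted p under 0.005, black lines are medians, and the medians of the resting and other members, 1.04 and 1.17, lie beside those of the lists for leukocytes (1.20), rods (0.04) and RGCs (-0.51).

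Some genes of a leukocyte list and some of activated microglia rose beside the members. Of 9 listed leukocyte genes 6 rose (median log2 fold change 1.20), led by Ctss at a median of 68.6 CPM in bTBI retinas and 23.2 CPM in sham retinas (1.57, adjusted p = 0.000334), and including Ptprc, which encodes CD45 (0.92, adjusted p = 0.00148), and Itgb2, an integrin chain (1.20, adjusted p = 0.00161). Of 10 listed disease-associated genes 3 rose (median 0.64), namely Clec7a, a receptor for fungal glucans (1.52, adjusted p = 0.00371), Axl, a receptor for dying cells (0.75, adjusted p = 0.00359), and Cd9, a tetraspanin (0.53, adjusted p = 0.00460). Ctsb (0.14, adjusted p = 0.180) and Ctsd (0.10, adjusted p = 0.651), lysosomal proteases made by many retinal cells, did not pass. In sham retinas Ptprc was at 0.484 to 1.22 CPM and Clec7a at 0.510 to 1.12 CPM, and neither was listed at 5 weeks. The listing of Ptprc and Clec7a at 1 week may thus rest on bTBI retinas, and their calls are then not independent of it. Several of these lists had calls in the same direction as the members, and whether the sizes differed between lists was not tested.

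Markers of other blood and border cells were mostly not listed. None of the 6 monocyte, 7 neutrophil or 9 T and NK cell genes was listed at 1 week, and of 10 border macrophage genes 2 were, Lyve1 (log2 fold change -0.13, adjusted p = 0.338) and Stab1 (0.51, adjusted p = 0.240). Mrc1, Cd163, Pf4, Ccr2 and Ly6c2 were among those not listed, and the summed level of Lyve1 and Stab1 was 15.6 to 22.9 CPM in bTBI retinas, against 15.4 to 21.1 CPM in sham retinas. Of 5 B cell genes Ighm, the heavy chain of IgM, was listed and rose, at 2.73 to 5.01 CPM in bTBI retinas and 1.21 to 1.83 CPM in sham retinas (log2 fold change 0.92, adjusted p = 0.000325). The red cell genes had a summed level of 43.2 to 79.3 CPM in bTBI retinas, against 47.3 to 78.5 CPM in sham retinas, with none of 5 called.

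The number of members called depended on the retinas in the fit while their fold changes stayed positive. In a fit of all 24 retinas together, which holds neither Aif1 nor Fcrls, all 7 members tested were called at 1 week, P2ry12 (adjusted p = 0.00248), Csf1r (0.00343) and Tyrobp (0.000304) among them. This fit called 685 genes, against 336 in the fit of 1 week alone. It shares 1 variance per gene between the timepoints, so its adjusted p understate the spread at 1 week. In bTBI retinas the standard deviation of Tyrobp was 8.87 CPM at 1 week and 0.329 CPM at 5 weeks. Without the lens-rich bTBI replicates 5 and 6, Tmem119, Cx3cr1 and Aif1 were called, among 112 genes in the whole table. Without the myelin-rich bTBI replicate 3 there were 6 calls with Tyrobp added, where fits with 1 retina left out called 189 to 486 genes. Without all 3 of these retinas, an omission chosen after seeing the data, 0 of 9 were called, together with 8 genes in the whole table. In that last fit the median log2 fold changes were 0.98 for the resting and 0.97 for the other genes, and 5 of the 9 had an adjusted p under 0.05. The calls in the lists fell too, with 1 homeostatic, 0 leukocyte and 0 transcription factor genes called and medians of 0.59, 0.85 and 0.69.

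At 5 weeks the 7 listed members differed little between the groups. The log2 fold changes lay between -0.07 (Tyrobp) and 0.22 (Trem2), none of the 7 was called by limma, and 1 had an unadjusted p under 0.05, against 10.9% of all genes. Of all 15920 genes 0.835% were called at 5 weeks, and 0.0126% were called as higher. The adjusted p of the members were 0.444 to 0.979. In no member were the bTBI retinas all above the sham retinas, which held for 0.239% of all genes.

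Tmem119 was at 1.504, 1.92 and 2.59 CPM in bTBI retinas of 5 weeks, against 1.41, 2.06 and 2.50 CPM in sham retinas (log2 fold change -0.02, standard error 0.12). P2ry12 was at 1.73, 2.92 and 3.27 CPM in bTBI retinas, against 2.13, 2.63 and 3.22 CPM in sham retinas (0.02, standard error 0.12). In both genes the ranges covered each other. For Cx3cr1 the values were 4.65, 5.28 and 6.92 CPM in bTBI retinas, against 3.62, 4.88 and 5.53 CPM in sham retinas (0.17, standard error 0.10), with 2 of 6 bTBI retinas above the sham range. Siglech had 1.74, 2.31 and 2.49 CPM in bTBI retinas, against 1.56, 1.72 and 2.44 CPM in sham retinas (0.20, standard error 0.10). Its medians differed more than those of Tmem119 or P2ry12, with a single sham retina, replicate 5, near the top of the bTBI range.

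Trem2 was at 1.48, 1.73 and 2.16 CPM in bTBI retinas of 5 weeks, against 1.09, 1.26 and 1.76 CPM in sham retinas (log2 fold change 0.22, standard error 0.11, adjusted p = 0.444). Tyrobp, its partner, was at 1.42, 1.75 and 2.32 CPM in bTBI retinas, against 1.59, 1.94 and 2.12 CPM in sham retinas (-0.07, standard error 0.10). The receptor and its adaptor thus had values of opposite sign, both short of the threshold. Csf1r was at 34.1, 39.4 and 42.7 CPM in bTBI retinas, against 34.6, 36.9 and 40.03 CPM in sham retinas (0.07, standard error 0.05).

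Among the lists at 5 weeks, 0 of 11 homeostatic, 0 of 7 leukocyte, 0 of 8 disease-associated, 0 of 6 ligand, 0 of 3 Trem2 signalling and 0 of 2 transcription factor genes were called, with medians of -0.06 to 0.08. Unadjusted p under 0.05 were found for 1, 1, 0, 2, 0 and 1 of them in that order. Ctss was nearest to a call, at a median of 14.3 CPM in bTBI retinas and 10.97 CPM in sham retinas (log2 fold change 0.39, adjusted p = 0.0101), and every bTBI retina was above every sham retina. Il34 had the lowest value among the ligands (-0.35, adjusted p = 0.0406). Spi1, Runx1, Cebpa and Ikzf1 were not listed at 5 weeks.

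Whether the bTBI effect differed between the timepoints was tested for the 7 members in both tables. The effect was larger at 1 week in all 7, by 0.39 (Csf1r) to 1.41 (Tyrobp) on the log2 scale, and each had an unadjusted p under 0.05, as did 8.5% of the 14455 genes. None reached an adjusted p of 0.005, by which 0.104% of genes were called. This test too used 1 variance per gene over both timepoints, though the members varied more in CPM at 1 week. The smallest adjusted p were those of Cx3cr1 (difference 1.02, standard error 0.19, adjusted p = 0.00825) and Tmem119 (1.06, standard error 0.21, adjusted p = 0.0106). Trem2 (1.04, adjusted p = 0.0440), Tyrobp (1.41, adjusted p = 0.0443), Siglech (0.72, adjusted p = 0.0685), P2ry12 (0.61, adjusted p = 0.202) and Csf1r (0.39, adjusted p = 0.356) followed. Single retinas decided these calls, since 5 members passed without bTBI replicate 2 of 1 week, 2 without bTBI replicate 1 of 5 weeks and 1 without sham replicate 4 of 1 week. The number of genes called also moved, from 9 to 111 over all fits with 1 retina left out.

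The sham retinas also differed between the timepoints, as values set side by side from tables scaled separately. Mean levels at 1 week were 1.24-fold (P2ry12) to 2.14-fold (Tmem119) those at 5 weeks, with Csf1r at 2.02-fold, Cx3cr1 at 1.82-fold, Trem2 at 1.73-fold, Tyrobp at 1.53-fold and Siglech at 1.35-fold. In Tmem119, Cx3cr1, Csf1r and Trem2 every sham retina of 1 week was above every sham retina of 5 weeks, as in 24% of the shared genes. Time after the procedure and RNA kit cannot be told apart here.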

How the data were processed

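Retinas of 6 bTBI and 6 sham mice at each of 2 timepoints were compared. As given in the methods and the labels, the authors made stranded poly(A) libraries, aligned reads with STAR to GRCm38 (mm10), used featureCounts for the gene counts and edgeR for the group comparisons. The deposited signal values are CPM, gene counts scaled by the authors to an effective library size, with low genes removed, and reads were inferred from the step between values. A gene low in sham retinas may have passed that removal only through bTBI retinas. Values were compared as log2(CPM + 1) with limma 3.58.1 (R 4.3.3, prior variance following the mean) within each timepoint and, over 14455 shared genes and all 24 retinas, for the difference of effects, with Benjamini-Hochberg adjustment over all genes and calls at an adjusted p under 0.005. Fold changes on this scale understate those of low genes. Each mouse gave 1 retina as far as the labels say. Positions and exon lengths are from GENCODE M21, and promoters from RefSeq (GRCm38.p6).

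The members and lists were chosen with earlier results of these data known. All 9 members are named, and of each list at most 4 called genes with the smallest p, with up to 2 uncalled genes of the highest mean where fewer were called. Ligands, transcription factors and Trem2 signalling genes are named, except that a few genes of the lists are not reported here. For likeness the 5 genes with the highest Pearson correlation over the 12 retinas of 1 week after subtraction of group means were taken among genes with a mean of at least 1 CPM. The alternatives were 2 other scalings, a minimum of 1 CPM in 6 of 12 retinas, a pseudocount of 0.1, a robust prior, a prior without trend, a replicate block, a fit of all 24 retinas together, a threshold of 0.05 and the omission of retinas.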

Additional observations from a re-analysis of the deposited data

Results flagged for a closer look

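In 32 groups of 6 retinas, the gap between an extreme retina and its neighbour was compared with the range of the group, and 4 were wider than Dixon's 95% critical value for 6 values, where chance gives about 1 in 20. At 1 week Fcrls was apart in bTBI replicate 3 (gap over range 0.838) and in sham replicate 4 (0.726), and Tyrobp in bTBI replicate 3 (0.766). At 5 weeks Siglech was apart in sham replicate 5 (0.648). bTBI replicate 3 is the retina with 2531 CPM of Mbp, and the part of that tissue in its Fcrls and Tyrobp values was not tested.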

How the results depend on the processing

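The log2 fold changes of the members at 1 week were positive under every alternative run, of which the fit of all 24 retinas holds 7 members, without Aif1 and Fcrls, and the others all 9. Calls depended on the retinas and on the threshold. The 5 calls at 1 week became 3 without bTBI replicates 5 and 6, 0 without bTBI replicates 3, 5 and 6 and 9 at an adjusted p under 0.05. They were 7 of 7 with all 24 retinas, where P2ry12, Csf1r and Tyrobp gained calls under a variance shared with the 5 weeks retinas. There were 4 with a prior without trend, where Trem2 lost its call (adjusted p 0.00527). The 336 genes called became 112 without bTBI replicates 5 and 6, 8 without bTBI replicates 3, 5 and 6, 907 at an adjusted p under 0.05 and 685 with all 24 retinas in a single fit. With 1 retina left out, 3 to 6 members and 189 to 486 genes were called. Tmem119, Cx3cr1 and Aif1 were called in all 12 such fits, and only these were called without bTBI replicate 1 or without sham replicate 2, 3, 5 or 6. Siglech lost its call in 7 of these 12 fits (highest adjusted p 0.00691) and Trem2 in 6 (0.00750). At 5 weeks 0 members were called under any alternative, and the 133 genes called became 56 with a prior without trend, 75 with all 24 retinas and 326 at 0.05, and 88 to 163 with 1 retina left out. Single omissions gave log2 fold changes of -0.080 to 0.032 for Tmem119 and -0.020 to 0.11 for P2ry12 at 5 weeks. For the difference of effects the 0 members called became 4 at 0.05 and 0 to 5 with 1 retina left out, and the 15 genes became 6 without bTBI replicates 3, 5 and 6, 111 at 0.05 and 9 to 111 with 1 retina left out. The resting minus other difference was -0.28 with Csf1r among the resting genes, and -0.05 to 0.07 with 1 retina left out. The causes were not tested.

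Same-numbered retinas had correlations of deviations of -0.25 to 0.54 at 1 week and -0.11 to 0.15 at 5 weeks. The labels do not say whether the numbers pair the retinas, and these correlations cannot decide it. With the replicate number as a block 5 members were called at 1 week, 0 at 5 weeks and 1, Cx3cr1 (adjusted p 0.00145), for the difference of effects. Tests on read counts with edgeR and DESeq2 were laid out but not run, since the deposited values are scaled. Depth limits Aif1 most, with 11 reads in its lowest retina, and such counts carry counting error beside the spread between mice.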
